A study of Mus musculus with 12 samples.

Results

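The mRNA levels of Lox, Loxl1, Loxl2, Loxl3, Loxl4, Plod1, Plod2, Serpinh1 and Pcolce, which encode enzymes and helper proteins that fold, process and crosslink collagen, were followed as mouse fibroblasts were turned into pluripotent cells. These 9 genes were taken by symbol from a deposited table of 24098 genes. The rule uses no threshold on their values, but the set was proposed with earlier results of these data known. Levels are FPKM, the number of sequenced fragments scaled to transcript length and to the size of the library. All 9 genes reached 1 FPKM in at least 1 library, as did 14178 genes in all, which form the background below.

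The starting cells (D0) were mouse embryonic fibroblasts (MEFs) from embryos whose Oct4 gene carries a GFP reporter, labelled wild type. All later reprogramming cells had been infected with retroviruses for Oct4, Sox2, Klf4 and c-Myc (OSKM). D3 cells were unsorted. Cells of days 6 and 9 were split on Thy-1, a surface protein of fibroblasts, into D6T-, D9T-, D6T+ and D9T+. Cells of days 12 and 16 were split on SSEA-1, a carbohydrate on the surface of pluripotent cells, into D12S+, D16S+, D12S- and D16S-. The study takes the Thy-1- and SSEA-1+ fractions as the successful route. Fully reprogrammed iPSCs and ESD3 embryonic stem cells (mESCs) were the end points. Each of the 12 conditions had 1 library, so differences carry no replicate error and none was tested. MEFs grew in serum medium. Infected cells, iPSCs and mESCs grew, by the labels, in a serum replacement medium with LIF, bFGF, CHIR99021 and ascorbic acid, but the study's methods name several media for reprogramming and, for the pluripotent lines, media with serum or serum replacement that lack ascorbic acid and CHIR99021. Infection and medium therefore cannot be told apart in any comparison with D0.

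Collagen chains are built in the endoplasmic reticulum (ER), where lysyl hydroxylases of the Plod family modify their lysines and the chaperone Hsp47, the product of Serpinh1, binds the folded triple helix. Outside the cell the end pieces of procollagen are cut off, which Pcolce enhances, and lysyl oxidases then convert lysines so that fibrils become covalently crosslinked. Ascorbic acid is a cofactor of the hydroxylases. Fibroblasts are the main makers of fibrillar collagen, and pluripotent cells make little of it.

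Several facts of the libraries bear on the values. Total FPKM ranged from 484968 to 648264, with the highest total in D0, and the depth relative to D0, read from the steps between low values, ranged from 0.967 to 1.56. The cuffdiff program gave each FPKM an interval, which is modelled and, with 1 library per condition, holds no spread between replicates. For the 9 genes its half-width had a median of 104% of the FPKM, and 67 of their 108 intervals began at 0. In none of the 10 comparisons made here did the 2 intervals of a member lie apart (0 of 9 genes in each). As every half-width was at least 91.96% of the FPKM, this overlap says little about the differences. Thy1 was at 669 FPKM in D0, at 477 and 491 FPKM in D6T+ and D9T+, and at 3.24 and 3.72 FPKM in D6T- and D9T-. In these bulk samples, fewer collagen-making cells and less mRNA per cell cannot be told apart.

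Serpinh1 (mm9, chromosome 7, 106493885 to 106501740, minus strand, 5 exons) had the highest level of the 9 genes in D0. Along the successful route it was at 1637 FPKM at D0, 712 at D3, 439 in the D6T- library, 351 in D9T-, 290.3 in D12S+ and 123 in D16S+. The other fractions held 894 FPKM for D6T+, 731 for D9T+, 493 for D12S- and 382 for D16S-. Each step of the successful route was thus lower than the one before. The end points, 125 FPKM in iPSCs against 115 in mESCs, lay close to D16S+. Even there the chaperone gene was well expressed: it ranked 53rd from the top among the 14178 genes in D0, 571st in D16S+ and 689th in iPSCs.

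Pcolce, the procollagen C-proteinase enhancer (chromosome 5, 138046331 to 138055012, minus strand, 9 exons), was the next highest gene in D0 and the highest in 7 of 12 libraries. It was at 1106 FPKM at D0, 479 at D3, 577 in the D6T- library, 556 in D9T-, 307 in D12S+ and 86.9 in D16S+. Levels were 1011 FPKM for D6T+, 999 for D9T+, 679 for D12S- and 556 for D16S-. Thus D6T+ and D9T+ held about the D0 level, and D16S- was 1.99-fold below it while D16S+ was 12.7-fold below it. In iPSCs Pcolce was at 31.6 FPKM and in mESCs at 103 FPKM. Unlike Serpinh1, it was lower in iPSCs than in D16S+, with a log2 difference of -1.43. Fbxo24, which overlaps Pcolce on the same strand, stayed between 0.167 and 1.44 FPKM. Together Serpinh1 and Pcolce made up between 72.8% (mESCs) and 91.8% (D6T-) of the summed FPKM of the 9 genes.

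The start regions of both genes are shown because their products act on the same substrate and their mRNAs were both lower in pluripotent cells than in D0. The sequences are the 250 bases before the RefSeq start in GRCm38.p6, on the minus strand, chr7:99353240-99353489 for Serpinh1 and chr5:137611405-137611654 for Pcolce. Such sequences were taken for 4 of the 9 genes. Capitals mark matches on either strand to 6 motifs. These were the TATA box searched as TATAAA, the CCAAT box searched by those letters, the GC box searched as GGGCGG, the site of the AP-1 factor searched as TGACTCA, the core of the hypoxia response element searched as ACGTG and the site of TEAD factors searched as GGAATG.
Serpinh1: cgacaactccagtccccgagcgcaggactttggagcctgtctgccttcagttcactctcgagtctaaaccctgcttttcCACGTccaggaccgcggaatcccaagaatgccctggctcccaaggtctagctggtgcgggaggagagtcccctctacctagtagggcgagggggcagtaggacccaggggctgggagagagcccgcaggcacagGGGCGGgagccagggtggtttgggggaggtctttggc
Pcolce: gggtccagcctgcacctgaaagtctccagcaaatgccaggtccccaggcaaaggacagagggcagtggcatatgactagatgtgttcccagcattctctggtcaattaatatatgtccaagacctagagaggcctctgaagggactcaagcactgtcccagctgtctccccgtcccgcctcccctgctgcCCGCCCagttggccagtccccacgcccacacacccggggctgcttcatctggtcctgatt
Serpinh1 held a GC box beginning 37 bases before the start and an ACGTG core 171 bases before it, on the opposite strand. Pcolce held 1 GC box, 60 bases before the start. A GC box was present in 32.7% of 32851 promoter windows of the same length, and an ACGTG core in 16.6%. A match is a description of letters only.

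The lysyl hydroxylases followed other courses. Plod1, which hydroxylates lysines of the collagen helix (chromosome 4, 147283862 to 147310876, minus strand, 19 exons), was at 73.6 FPKM at D0, 37.5 at D3, 39.7 in the D6T- library, 54.7 in D9T-, 82.5 in D12S+ and 27.5 in D16S+. The other fractions gave 68.5 FPKM for D6T+, 99.0 for D9T+, 153 for D12S- and 109 for D16S-. So Plod1 was above its D3 level in every sorted fraction but D16S+, only slightly in D6T-, and highest of all libraries in D12S-, above D0. It was at 19.1 FPKM in iPSCs against 40.4 in mESCs. Between D12S+ and D16S+ it was lower by a log2 difference of -1.55, whereas D16S- was still above D0 (0.56).

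Plod2, which hydroxylates the lysines at the ends of the chains (chromosome 9, 92437061 to 92503266, plus strand, 20 exons), was the least variable of the 9 genes. It was at 9.86 FPKM at D0, 13.2 at D3, 8.11 in the D6T- library, 7.40 in D9T-, 16.3 in D12S+ and 16.6 in D16S+. Values were 7.91 FPKM for D6T+, 6.25 for D9T+, 13.7 for D12S- and 13.4 for D16S-. Its highest value, in D16S+, was 2.65-fold above its lowest, in D9T+, and both fractions were higher on days 12 and 16 than on days 6 and 9. iPSCs held 6.56 FPKM and mESCs 15.9 FPKM. Plod2 was also the one member whose level was higher on the successful route than beside it on all 4 days, by small log2 differences of 0.03, 0.21, 0.23 and 0.29, a sign shared by 23.2% of all genes. The ratio of Plod2 to Plod1 FPKM was 0.134 in D0, 0.602 in D16S+ and 0.123 in D16S-, and between the day 16 fractions Plod1 differed more (-1.95) than Plod2 (0.29).

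Among the lysyl oxidases, Lox and Loxl1 kept the least of their D0 level in D16S+. Lox, the founding member of the family, was at 60.01 FPKM at D0, 63.0 at D3, 3.56 in the D6T- library, 3.69 in D9T-, 3.67 in D12S+ and 0.743 in D16S+. It was at 25.2 FPKM for D6T+, 29.2 for D9T+, 9.21 for D12S- and 8.79 for D16S-. Lox was therefore near its D0 level in the unsorted cells of day 3 and low in every Thy-1- and SSEA-1+ fraction. In iPSCs it was at 0.440 FPKM and in mESCs at 0.159 FPKM, below the 1 FPKM limit used here.

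Loxl1, which is needed for elastic fibres (chromosome 9, 58135530 to 58161019, minus strand, 7 exons), was at 203 FPKM at D0, 50.9 at D3, 11.4 in the D6T- library, 4.43 in D9T-, 7.05 in D12S+ and 2.44 in D16S+. In the other fractions it was at 122 FPKM for D6T+, 70.4 for D9T+, 16.9 for D12S- and 14.5 for D16S-. Loxl1 had the widest gap between the Thy-1 fractions of all 9 genes, 15.9-fold on day 9. It ended at 1.35 FPKM in iPSCs against 2.05 in mESCs, and the difference between iPSCs and D0, -6.44 on the log2 scale, was the largest among the members.

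Loxl2, Loxl3 and Loxl4 form the branch of the family with scavenger receptor cysteine-rich domains. Loxl2 (chromosome 14, 70008978 to 70095640, plus strand, 14 exons) was at 258 FPKM at D0, 88.4 at D3, 7.51 in the D6T- library, 7.29 in D9T-, 18.2 in D12S+ and 11.3 in D16S+. It was at 76.9 FPKM for D6T+, 38.4 for D9T+, 33.4 for D12S- and 40.3 for D16S-. The level passed through a low on days 6 and 9 of the successful route and was 1.21 higher on the log2 scale in D12S+ than in D9T-. With 7.61 FPKM in iPSCs against 22.2 in mESCs, Loxl2 was the lysyl oxidase with the highest level in both pluripotent lines. A long noncoding RNA, Gm16867, is annotated across Loxl2 on the other strand.

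Loxl3 (chromosome 6, 82984167 to 83002556, plus strand, 14 exons) was at 118 FPKM at D0, 18.1 at D3, 11.4 in the D6T- library, 14.4 in D9T-, 11.7 in D12S+ and 3.12 in D16S+. Its values were 36.1 FPKM for D6T+, 30.1 for D9T+, 31.4 for D12S- and 40.5 for D16S-. It stayed near one level in the 4 fractions off the successful route and was 13.0-fold higher in D16S- than in D16S+, the widest gap of the members on that day. It was at 0.869 FPKM in iPSCs against 0.376 in mESCs. The locus of Loxl3 in the table overlaps Htra2 on the other strand and Aup1, and its intervals were wide, with half-widths from 115% of the FPKM (D0) to 475% (mESCs). Aup1 was never below 48.7 FPKM and Htra2 never below 23.1 FPKM, also in the mESCs, where Loxl3 was at 0.376 FPKM.

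Loxl4 (chromosome 19, 42668472 to 42687303, minus strand, 15 exons) had a course of its own. It was at 6.49 FPKM at D0, 20.7 at D3, 8.69 in the D6T- library, 12.0 in D9T-, 11.8 in D12S+ and 5.25 in D16S+. Off the successful route it was at 12.4 FPKM for D6T+, 9.60 for D9T+, 17.8 for D12S- and 23.0 for D16S-. The lowest lysyl oxidase of D0 was thus above its D0 level in D3 and highest of all libraries in D16S-. It was at 1.60 FPKM in iPSCs against 0.176 in mESCs.

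**Figure D1:**
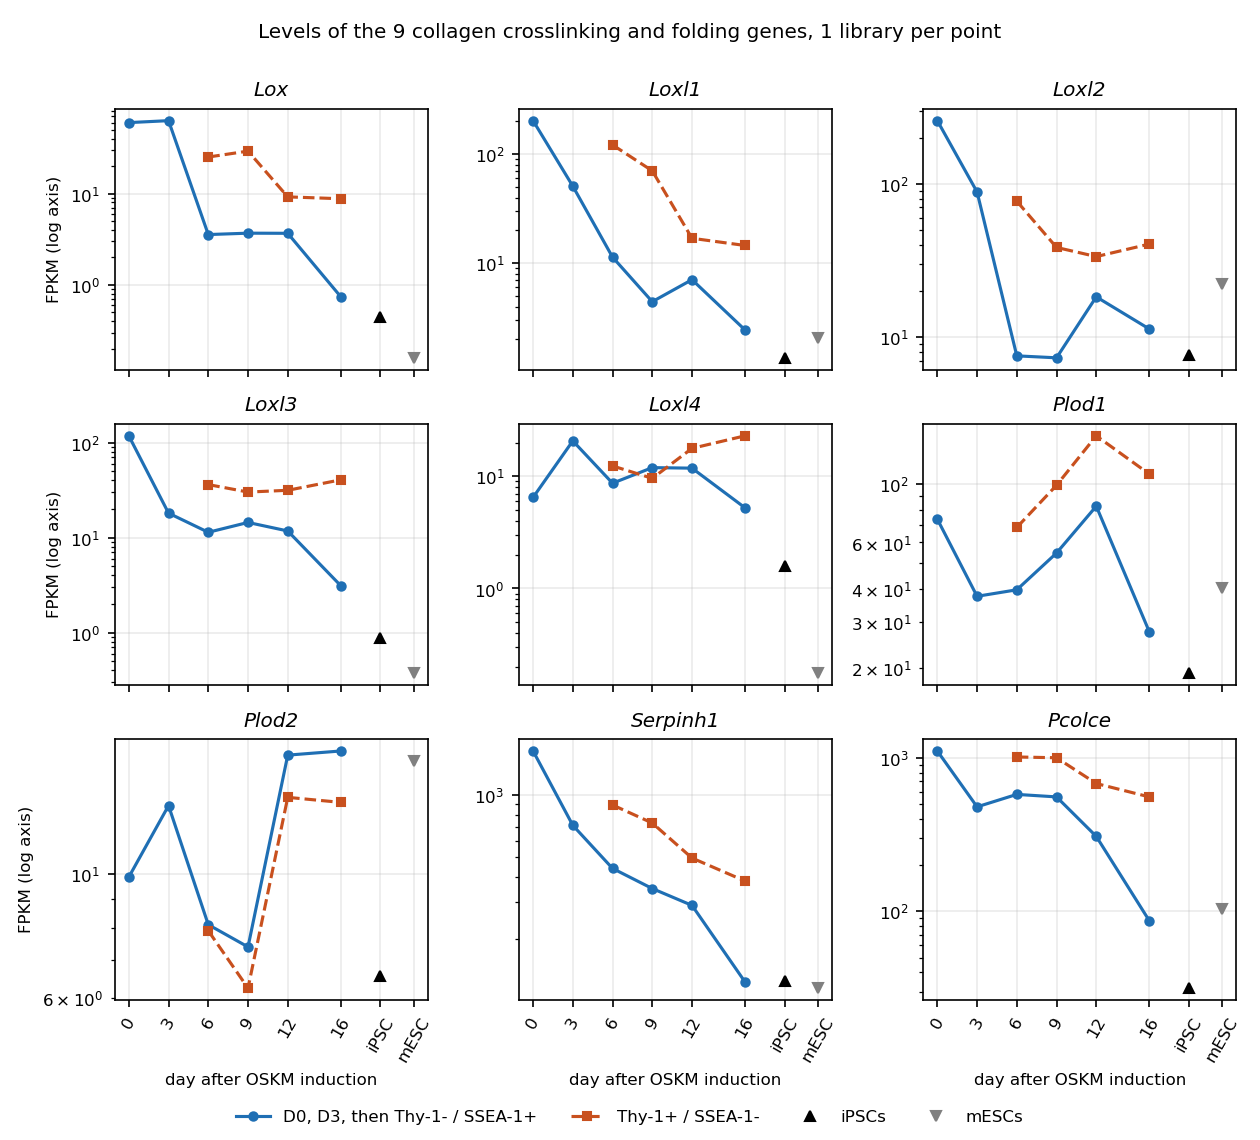
FPKM of each gene (log axis, a separate scale for each panel) against day, 1 library per point; blue circles are D0, D3 and then the Thy-1- or SSEA-1+ fraction, orange squares the Thy-1+ or SSEA-1- fraction, and triangles iPSCs and mESCs. The orange squares lie above the blue circles on all 4 days for 7 genes, Loxl4 crosses on day 9, and Plod2 stays between 6.25 and 16.6 FPKM.

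The promoters of Plod1 and Loxl4 are shown beside those above because these genes had their highest levels in SSEA-1- cells (D12S- and D16S-). They are the same 250-base windows on the minus strand of GRCm38.p6, chr4:147936777-147937026 for Plod1 and chr19:42612807-42613056 for Loxl4, with the same motifs in capitals.
Plod1: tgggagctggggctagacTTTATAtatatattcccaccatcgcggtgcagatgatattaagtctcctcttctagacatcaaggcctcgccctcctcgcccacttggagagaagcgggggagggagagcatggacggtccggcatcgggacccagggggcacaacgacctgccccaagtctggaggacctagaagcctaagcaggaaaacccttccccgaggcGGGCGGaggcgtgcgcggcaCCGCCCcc
Loxl4: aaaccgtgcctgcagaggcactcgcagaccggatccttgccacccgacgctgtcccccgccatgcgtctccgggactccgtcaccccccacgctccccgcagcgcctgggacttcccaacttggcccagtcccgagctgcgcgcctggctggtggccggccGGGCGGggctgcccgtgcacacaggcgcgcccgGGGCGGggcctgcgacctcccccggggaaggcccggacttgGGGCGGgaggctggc
Loxl4 held 3 GC boxes and Plod1 held 2, beside a TATAAA motif on the opposite strand that began 232 bases before the start. TATAAA was present in 12.4% of all windows. The windows of the 4 genes held no CCAAT box, AP-1 site or TEAD site, present in 33.8%, 4.46% and 12.6% of all windows. Their GC content ranged from 58.8% (Pcolce) to 76.0% (Loxl4), with a median of 52.4% over all windows.

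The make-up of the lysyl oxidase family differed between libraries, as did its total. The summed FPKM of the 5 genes was 646 in D0, 241 in D3, 42.5 in D6T-, 41.8 in D9T-, 52.5 in D12S+ and 22.8 in D16S+. Off the successful route the sum was 272 in D6T+, 178 in D9T+, 109 in D12S- and 127 in D16S-, and it was 11.9 in iPSCs and 24.96 in mESCs. iPSCs thus held a family sum 54.4-fold below that of D0. In D0, Loxl2 made up 40.0% of the sum, Loxl1 31.5%, Loxl3 18.2%, Lox 9.29% and Loxl4 1.00%. In D9T-, Loxl3 (34.5%) and Loxl4 (28.6%) were the largest parts, whereas in D9T+ Loxl1 was (39.6%). Loxl2 then took 49.4% in D16S+, 64.1% in iPSCs and 88.9% in mESCs. D16S- had a different make-up, with 31.7% from Loxl2, 31.9% from Loxl3 and 18.1% from Loxl4. These shares are ratios within a library and do not depend on its scaling.

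**Figure D2:**
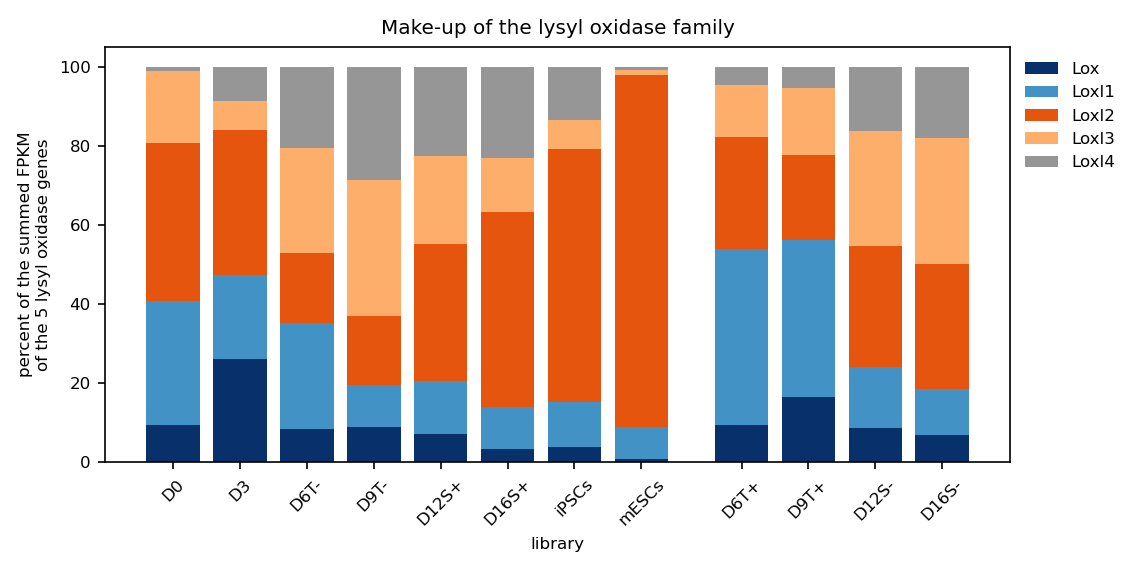
Share of each lysyl oxidase gene in the summed FPKM of the 5 genes (percent, stacked bars from 0 to 100), 1 library per bar, with the successful route and end points on the left and the other fractions on the right. Loxl2 is the largest part in D16S+ (49.4%), iPSCs (64.1%) and mESCs (88.9%), and the share of Loxl1 is largest in D6T+ (44.7%) and D9T+ (39.6%).

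To see what the first days of OSKM brought, D3 was compared with D0. Differences are in log2(FPKM + 1), and a gene was counted when it was at least 2-fold apart on that scale. Lower in D3 were 5 of 9 members: Loxl3 (-2.64), Loxl1 (-1.98), Loxl2 (-1.54), Pcolce (-1.21) and Serpinh1 (-1.20). Of all genes, 8.67% were that much lower. The one member at least 2-fold higher was Loxl4 (1.54), beside 5.76% of all genes. Lox (0.07), Plod2 (0.39) and Plod1 (-0.96) stayed within 2-fold. The median of the members was -1.20 and that of all genes -0.02. When libraries were scaled to the same total FPKM, the count of lower members was 3, since Serpinh1 (-0.93) and Pcolce (-0.94) then missed the limit.

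Over the whole conversion, 8 of 9 members were lower in iPSCs than at D0 by 2-fold or more, against 21.6% of all genes, and 0 were higher (18.7% of all genes). As ratios of FPKM, the level in D0 exceeded that in iPSCs by 150.3-fold for Loxl1, 136-fold for Lox, 135-fold for Loxl3, 35.0-fold for Pcolce, 33.9-fold for Loxl2, 13.1-fold for Serpinh1, 4.06-fold for Loxl4 and 3.84-fold for Plod1. Those for Lox and Loxl3 rest on values under 1 FPKM in iPSCs. Plod2, the exception, differed by -0.52 on the log2 scale. The median log2 difference of the members was -4.91, and that of all genes 0.03.

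By day 16 the routes had parted. D16S+ had 7 members at least 2-fold below D0 (20.9% of all genes), all but Loxl4 (-0.26) and Plod2 (0.69), and 0 above it (20% of all genes), with a median of -3.72. Plod2 passed the limit (1.08), Plod1 missed it (-0.98) and Loxl4 changed sign (0.10) when libraries were scaled to the same total FPKM. In D16S- there were 5 such members (11.4% of all genes), Loxl1 (-3.72), Loxl2 (-2.65), Lox (-2.64), Serpinh1 (-2.10) and Loxl3 (-1.52), with a median of -1.52. Pcolce (-0.99) came close to the limit there. Loxl4 was at least 2-fold higher in D16S- than in D0 (1.68), as were 12.8% of all genes. Both comparisons share the D0 library, and these values are given side by side only.

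The sorted fractions of one day shared the day after infection and were compared next. Whether they came from the same culture is not given. D6T- had 5 of 9 members at least 2-fold below D6T+ (9.47% of all genes), Loxl1 (-3.31), Loxl2 (-3.19), Lox (-2.52), Loxl3 (-1.59) and Serpinh1 (-1.02). D9T- had the same 5 below D9T+ (6.45% of all genes), with Loxl3 at -1.01 and Serpinh1 at -1.06. With libraries scaled to the same total FPKM, Serpinh1 missed the limit on day 6 (-0.96), which left 4, and Loxl3 and Serpinh1 missed it on day 9, which left 3. D12S+ had 4 members below D12S- (3.03% of all genes), Loxl3 (-1.35), Loxl1 (-1.15), Pcolce (-1.14) and Lox (-1.13). D16S+ had 8 below D16S- (15.2% of all genes), from Loxl3 (-3.33) and Pcolce (-2.66) to Serpinh1 (-1.62). No member was 2-fold or more higher on the successful route on any day (0 of 9 on each), which held for 2.93%, 1.81%, 4.79% and 11.8% of all genes. Lox, Loxl1 and Loxl3 were at least 2-fold lower on all 4 days, as were 152 of 14178 genes (1.07%). Of the 9 members 7 were lower on all 4 days by any amount, as were 24.8% of all genes. The medians of the members were -1.02, -1.01, -0.88 and -1.95 on days 6, 9, 12 and 16, and those of all genes 0.00, 0.02, -0.01 and -0.02.

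**Figure D3:**
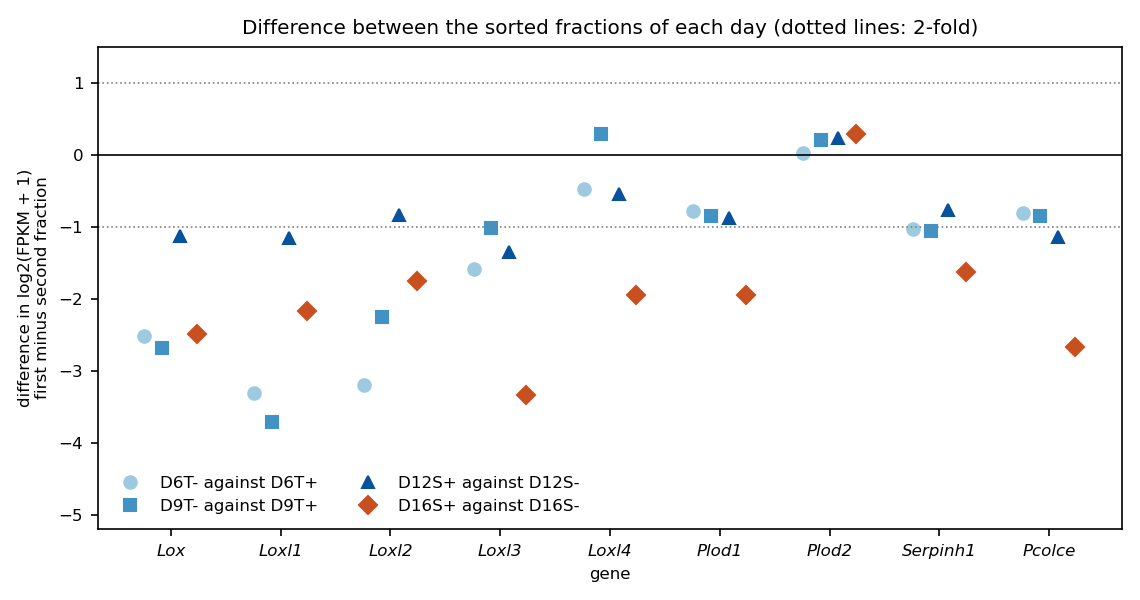
Difference in log2(FPKM + 1) between the 2 sorted fractions of each day for each gene, the Thy-1- or SSEA-1+ fraction minus the other, 1 library per fraction; dotted lines mark 2-fold. Lox, Loxl1 and Loxl2 have lower values on days 6 and 9 than on day 12. Loxl3, Loxl4, Plod1, Serpinh1 and Pcolce are furthest below 0 on day 16, and Plod2 lies between 0.03 and 0.29.

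The gap in the sorting marker itself was far wider than that of the folding genes. In D6T-, Thy1 was at 0.679% of its D6T+ level, Loxl1 at 9.32%, Loxl2 at 9.76%, Lox at 14.1% and Loxl3 at 31.5%, whereas Serpinh1 was at 49.1%, Pcolce at 57.0%, Plod1 at 57.9% and Plod2 at 103%. Col1a1, a chain of the main fibrillar collagen, was at 10.2% and Col1a2, its partner chain, at 20.2%. On day 16 the order differed: in D16S+ Loxl3 was at 7.70% of D16S-, Lox at 8.45%, Pcolce at 15.6%, Loxl1 at 16.8%, Plod1 at 25.2%, Loxl2 at 27.9% and Serpinh1 at 32.3%, with Thy1 at 8.34% and Col1a1 at 7.82%. Of 10 fibroblast markers, all were lower on the successful route on each of the 4 days, with medians of -2.19, -2.20, -1.26 and -2.13. The list includes Thy1, whose direction on days 6 and 9 is not independent of the sort. The part of residual fibroblasts in these differences was not tested. Of 7 leukocyte markers, the defining Ptprc was at or below 0.425 FPKM in every library and Itgam at or below 1.68 FPKM. The other markers of that list were mixed from D0 to D16S+ and D16S-. Cd68 went from 9.05 to 62.0 and 115 FPKM, Laptm5 from 1.37 to 18.99 and 57.3, and Csf1r from 1.55 to 6.63 and 19.9. Tyrobp went down, from 3.38 to 0.0724 and 0.897 FPKM, as did Cd14, from 9.79 to 1.67 and 9.03 FPKM. Cd68 and Laptm5 were also present in the pluripotent lines, at 40.0 and 40.5 FPKM in iPSCs and 48.0 and 52.1 in mESCs. Csf1r was at 6.52 FPKM in iPSCs and 0.0953 in mESCs. The summed level of the list lay between 25.2 (D6T-) and 203 FPKM (D16S-). Of the 6 markers that reached 1 FPKM, 3 were at least 2-fold lower in D16S+ than in D16S- (15.2% of all genes, median -1.17). The highest sum thus fell in D16S-, the library with the highest Loxl4, and the part of leukocytes in the day 16 differences was not tested.

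Finally, the pluripotent lines were set beside D16S+ and each other. Against D16S+, iPSCs had 4 members at least 2-fold lower (7.77% of all genes), Pcolce (-1.43), Loxl4 (-1.27), Plod2 (-1.22) and Loxl3 (-1.14), and 0 higher (4.38% of all genes). Against mESCs, iPSCs had again 4 lower members (7.41% of all genes), namely Pcolce (-1.68), Loxl2 (-1.43), Plod2 (-1.16) and Plod1 (-1.04, or -0.93 when scaled to the same total), and 1 higher, Loxl4 (1.14), beside 6.79% of all genes. Serpinh1 differed little in either, by 0.02 (-0.15 when scaled to the same total) and 0.12. With a pseudocount of 0.1, 3 members were higher in iPSCs than in mESCs, Loxl4 (2.62), Lox (1.06) and Loxl3 (1.03). Of a list of 12 genes that respond to hypoxia, 0 were higher in iPSCs than in mESCs and 9 were at least 2-fold lower. Among them Pgk1, a glycolytic enzyme, was at 48.8 FPKM in iPSCs against 235 in mESCs. P4ha1, a prolyl hydroxylase of collagen, was at 4.14 FPKM in iPSCs against 18.2 in mESCs. In D16S+ and D16S-, 8 and 9 of these 12 hypoxia genes were 2-fold or more above D0 (20% and 12.8% of all genes). Their medians were 2.43 and 2.94, beside 0.69 and 0.41 for Plod2. In D16S+ against D16S-, 4 of the 12 were at least 2-fold lower and 1 higher (median -0.43), beside 0.29 for Plod2. In iPSCs against D0, 4 were at least 2-fold higher and 3 lower (median 0.00), beside -0.52 for Plod2. The part of the hypoxia response in these differences was not tested. Col1a1 went the other way, with 38.7 FPKM in iPSCs against 15.2 in mESCs, but Col1a2 was at 6.65 against 7.98. Of 12 genes of fibrillar collagens and elastic fibre proteins, 6 were higher and 6 lower in iPSCs (median 0.00), and Col1a1 differed most.

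The remaining genes of collagen processing gave a frame for the 9. Of a list of 25 such genes 24 passed the 1 FPKM limit. In iPSCs 21 of them were at least 2-fold below D0 and 2 above (21.6% and 18.7% of all genes), with a median of -1.86. In D16S+ 18 of 24 were below D0 and 0 above (20.9% and 20% of all genes, median -1.96). In D16S- 12 were below and 1 above (11.4% and 12.8% of all genes, median -1.01). Fkbp10, a chaperone partner of Hsp47, was at 439 FPKM at D0, 21.9 in D16S+, 110 in D16S- and 22.2 in iPSCs. Bmp1, the protease that Pcolce enhances, was at 336 FPKM at D0, 6.28 in D16S+, 49.5 in D16S- and 19.2 in iPSCs. Both thus differed more between D0 and the pluripotent cells than Plod3, the third lysyl hydroxylase, with 192 FPKM in D0, 38.5 FPKM in D16S+ and 37.0 FPKM in iPSCs. Pcolce2, the paralog of Pcolce, ran against it early, with 8.37 FPKM in D0 and 92.5 FPKM in D3. P4hb, a protein disulfide isomerase that is a subunit of prolyl hydroxylase and serves other proteins too, was at 991 FPKM in D0 and 311 FPKM in iPSCs. Between D16S+ and D16S- the list held 10 genes at least 2-fold lower in D16S+ and 0 higher (15.2% and 11.8% of all genes, median -0.72).

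General ER folding genes lay closer to their D0 level than the collagen processing list in iPSCs and in D16S+ (median -0.93). In D16S- the medians of both lists were similar (-0.98 and -1.01), with 5 of 12 ER genes at least 2-fold below D0 (11.4% of all genes). Of the 12 ER genes, 7 lay 2-fold or more below D0 in iPSCs and 0 above (median -1.07). None was past 2-fold between D16S+ and D16S- (0 of 12, median -0.11), where Serpinh1 differed by -1.62. Hspa5, the main ER chaperone, was at 161 FPKM at D0, 149 in D16S+, 162 in D16S- and 124 in iPSCs. Calr, the lectin chaperone calreticulin, was at 1380 FPKM at D0, 472 in D16S+, 676 in D16S- and 527 in iPSCs. Among 12 substrate genes (fibrillar collagens and elastic fibre proteins), 11 lay 2-fold or more below D0 in iPSCs and 1, Col2a1 of cartilage, above (median -5.49). A list of 10 TGF-beta targets, a pathway known to induce lysyl oxidases in fibroblasts, had 5 lower and 1 higher in iPSCs than in D0 (median -1.02). It had 6 lower and 1 higher in D16S+ than in D16S- (median -1.66). Of all genes, 21.6% were at least 2-fold lower and 18.7% higher in iPSCs than in D0. In D16S+ against D16S- these shares were 15.2% and 11.8%.

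Serpinh1, Pcolce, Plod1 and the lysyl oxidase sum stayed closer to their D0 level than the main substrate in every later library, which did not hold for each single lysyl oxidase. Summed over Col1a1, Col1a2 and Col3a1, collagen FPKM was 6366 in D0, 391 in D6T-, 2121 in D6T+, 27.0 in D16S+, 363 in D16S- and 47.6 in iPSCs, so that D16S+ was 236-fold and iPSCs 134-fold below D0. Loxl1 (150.3-fold), Lox (136-fold) and Loxl3 (135-fold) were as far below D0 in iPSCs as these collagens or further. Per 1000 FPKM of these collagens, Serpinh1 was at 257 in D0, 1123 in D6T-, 4566 in D16S+, 1051 in D16S- and 2621 in iPSCs. Plod1 was at 11.6 in D0, 101 in D6T-, 1019 in D16S+, 301 in D16S- and 402 in iPSCs on this measure. For the 5 lysyl oxidases together the ratio was 101 in D0, 109 in D6T- and 121 in D9T-, and only later did it reach 248 in D12S+ and 845 in D16S+. Up to day 9 the lysyl oxidase sum and the collagen sum thus stayed within a narrow band of each other, between 101 and 134 per 1000 in the 6 libraries of days 0 to 9, while Serpinh1 per collagen spanned 257 to 1123.

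**Figure D4:**
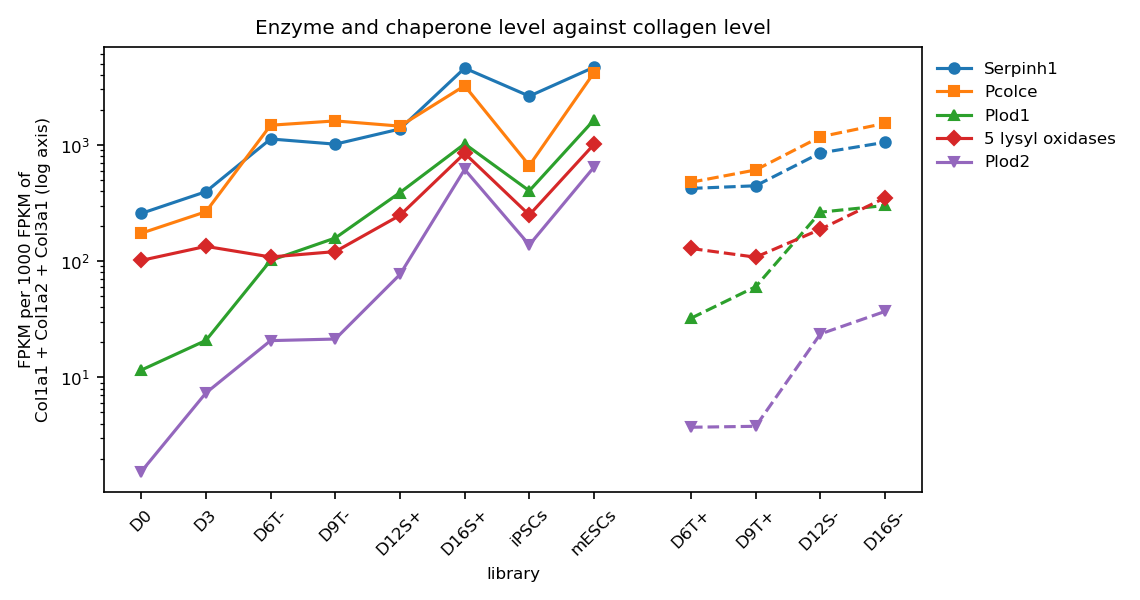
FPKM of Serpinh1, Pcolce, Plod1, Plod2 and the sum of the 5 lysyl oxidases per 1000 FPKM of Col1a1, Col1a2 and Col3a1 together (log axis), 1 library per point; solid lines join the successful route and end points, dashed lines the other fractions. The lysyl oxidases stay between 101 and 134 in the libraries of days 0 to 9, and Serpinh1 goes from 257 in D0 to 4566 in D16S+.

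Profiles over the 12 libraries were compared by Pearson correlation of log2(FPKM + 1), as a description, since most libraries belong to one time course. Among all 36 pairs of members, r ranged from -0.32 to 0.96 with a median of 0.67. Plod2 and Loxl4 were set apart for their differing courses in these same data. Among the 21 pairs without them, r ranged from 0.44 to 0.96 with a median of 0.82. For the 8 pairs with Loxl4 the median was 0.60, and for those with Plod2 it was -0.19. Of 8803 other genes that reached 10 FPKM, those most like Serpinh1 were Col1a2 (0.990), the collagen-degrading protease Ctsk (0.988) and Nr2f2 (0.986). Loxl1 was most like Irx1, Sema3a and Sgcd (0.997, 0.994 and 0.989), and Lox was most like Gpr176, Igfbp7 and Orai2 (0.984, 0.979 and 0.978). Loxl2 was closest to Selm (0.970), Ctsh (0.963) and Tgfb1 (0.959), Loxl3 to Elk3 (0.986), the prolyl hydroxylase P3h3 (0.982) and Shisa5 (0.982), and Pcolce to Creb3l2 (0.987), Lix1l (0.984) and Mknk1 (0.981). Plod1 was nearest to Hes1 (0.954), Adck4 (0.949) and Rilpl2 (0.943), and Loxl4 to Lrrfip1 (0.986), Pla2g7 (0.963) and A430105I19Rik (0.959). Plod2 had the weakest best matches, Pgk1 (0.885), Abcb10 (0.855) and Rcan3 (0.829).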

How the data were processed

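TruSeq mRNA libraries of 12 conditions were sequenced by the authors, 1 per condition. The authors mapped reads to mm9 with STAR, removed reads with more than 2 mismatches or more than 1 locus, and estimated gene levels with cuffdiff, per the paper's methods and the labels. The deposited values are FPKM with the ends of the cuffdiff interval of each FPKM. Versions, annotation, library scaling and whether counting used strand are not given in the sources used here. The methods name a TruSeq kit that the labels describe as stranded. Removal of multi-mapping reads can lower genes with near copies, and reads of overlapping genes may be misassigned. Total fragments are unknown, so relative depth was read from the steps of values under 0.5 FPKM.

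Columns were matched to libraries by day and sign of the sorting marker, and groups come from the titles. The cuffdiff status columns (12) were left out. Values were analysed as log2(FPKM + 1) with Python 3.11.15 and pandas 2.3.3, over genes at 1 FPKM or more in at least 1 library. A fold on this scale understates the change of low genes. A gene was counted at 2-fold, without a test. The members and lists were chosen with earlier results of these data known. Named genes are the 9 members, genes of the lists, and for each member the 3 genes of at least 10 FPKM with the highest correlation. Positions are from GENCODE M1 (mm9), 1-based, and promoter windows from RefSeq (GRCm38.p6). Functions were tested on simulated data. Alternatives were another pseudocount, fold threshold, filter and scaling.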

Additional observations from a re-analysis of the deposited data

Results flagged for a closer look

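Loxl4 was the one member whose difference between the sorted fractions changed sign with the day. The successful route held less of it on day 6 (-0.47 on the log2 scale), day 12 (-0.55) and day 16 (-1.94), and more on day 9 (0.29). With 1 library per fraction this change of sign was not tested, and the values of days 6, 9 and 12 lie within 2-fold.

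Against D0, the fractions of day 16 lay on opposite sides for Loxl4 and Plod1. Loxl4 was at -0.26 in D16S+ and at 1.68 in D16S-, and Plod1 at -1.39 in D16S+ and at 0.56 in D16S-. The difference between the fractions in this change was not tested. After scaling all libraries to an equal total FPKM, the value of Loxl4 in D16S+ turned to 0.10, so its opposite direction rests on the scaling.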

How the results depend on the processing

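Of the 50 recomputed medians of the members all stayed within 0.5 on the log2 scale, and of 120 recomputed counts 106 stayed within 1.5 times. The fold threshold of 4 moved 10 counts. It left 1 member lower and 0 higher in D3 than in D0, 3 lower in D6T-, 3 in D9T-, 0 in D12S+ and 4 in D16S+, each beside its partner fraction, 0 higher in D16S- than in D0, 0 lower in iPSCs than in D16S+, and 0 lower and 0 higher in iPSCs than in mESCs; fewer genes pass by construction. Scaling to the same total FPKM left 3 lower members in D3 against D0 and 3 in D9T- against D9T+, and counted 1 member, Plod2, as higher in D16S+ than in D0. With a pseudocount of 0.1, 3 members were higher in iPSCs than in mESCs, all of them under 2 FPKM in both. Neither the filters nor the median of ratios moved a result, and the factors of the latter lay between 1.00 and 1.02. Among recomputed differences of single members 441 stayed within 0.5, and 9, all with the pseudocount of 0.1 and with a value under 2 FPKM, did not. The sign changed for Loxl4 in D16S+ against D0 (-0.26 to 0.10) and for Serpinh1 in iPSCs against D16S+ (0.02 to -0.15), both when scaled to the same total.

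That scaling also moved the median of all genes, from -0.02 to 0.12 in D3 against D0, from 0.05 to 0.35 in D16S+ against D0, from 0.00 to 0.19 in D16S- against D0, from 0.03 to 0.18 in iPSCs against D0 and from -0.01 to -0.14 in iPSCs against D16S+. The share of higher genes among those past 2-fold went from 39.9% to 56.5%, 48.9% to 65.6%, 52.9% to 68.2% and 36.1% to 22.9% in D3, D16S+ and D16S- against D0 and in iPSCs against D16S+. No paired analysis was possible because each condition had 1 library. Depth limits Lox, Loxl3 and Loxl4 most, which were under 1 FPKM in at least 1 pluripotent line.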
